A study of Mus musculus with 144 samples.

Results

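Ageing of muscle was measured in nmrHAS2 mice, which carry the hyaluronan synthase 2 gene of the naked mole-rat as a transgene. Libraries from 6 animals or samples aged 24 months were compared with 6 aged 6 months, each age with 3 female and 3 male libraries. These 12 RNA-seq libraries were chosen by the labels for tissue, genotype, age and sex alone, out of 144 libraries from 6 tissues, and no measured value entered the choice. CreER mice of both ages and sexes, 12 further muscle libraries, served as controls: they carry the tamoxifen-inducible recombinase that switches the transgene on, but no transgene. The labels give tissue as muscle without naming which muscle, and give neither strain, the promoter of the transgene, the tamoxifen treatment nor the animal behind a library. Each library was counted as 1 replicate, and p-values reflect only how far these libraries differed, a spread that may be technical.

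Hyaluronan is a long sugar polymer of the matrix between muscle fibres. It is made at the cell surface by hyaluronan synthases, bound by receptors such as CD44 and cut by hyaluronidases. Muscle of old mice is known for loss of fibre mass, for fibres that lose and regain their nerve contact, and for more immune cells between the fibres. Fibres without a nerve switch back on genes of the embryonic muscle programme, among them the gamma subunit of the acetylcholine receptor.

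Library kind, which is not in the labels, was partly aligned with age. The share of counts on 5 small RNAs without a poly(A) tail (Rn7sk, Rmrp, Rpph1, Rn7s1 and Rn7s6) was between 0.000869% and 0.0057% in 4 libraries, the 3 young males and old male 3, with 23.14 to 27.64 M counts each. The other 8 libraries had 11.7% to 16.8% of their counts on these RNAs. Among those 8, old females 1 and 2 and old males 1 and 2 held few fractional counts (24.7% to 25.9% of values above 0) and 38.12 to 42.64 M counts. The 3 young females and old female 3 held many fractional counts (62.5% to 65.6%) and 89.82 to 102.5 M counts. No young library had the kind of the 4 old ones numbered 1 and 2. Ageing was therefore also compared within kind, old female 3 against the 3 young females and old male 3 against the 3 young males, with both sexes weighted equally. This within-kind value shares all its libraries with the full comparison and rests on 1 old library per sex. The 24 muscle libraries share 1 estimate of the spread, and without the CreER library old male 3, 2597 genes were called in nmrHAS2 muscle instead of 1008.

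The labels were checked on the transgene and on muscle markers. The naked mole-rat HAS2 transcript was at 148, 198 and 126 CPM in old females and 158, 79.4 and 337 CPM in old males, against 250, 329 and 377 CPM in young females and 14.9, 184 and 77.5 CPM in young males. The CreER muscle libraries held 0 to 0.676 CPM of it. Old and young nmrHAS2 libraries overlapped widely, and the age difference was 0.02 ± 0.45 (adjusted p = 0.986) on the log2 scale, given throughout as old minus young with its standard error. Mouse Has2 differed by 0.29 ± 0.43 (adjusted p = 0.711), and its level stood at a median of 0.228 times that of the transgene (0.146 to 0.252 over the 12 libraries). Has2 was at 3.76 to 76 CPM in the nmrHAS2 libraries and at 0.268 to 2.38 CPM in the CreER libraries. Reads of closely similar genes can be split between them in counting, so the level of Has2 and its age difference are uncertain. The part of transgene reads in Has2 was not tested. The 16 markers of skeletal muscle fibres, such as Ckm and Acta1, summed to 117310 to 218471 CPM in old and 150071 to 216813 CPM in young libraries, and none of the 16 passed the test (7 were called lower without old male 3).

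Between the ages, 1008 of 18063 genes tested differed in nmrHAS2 muscle, 5.58% of them. Of these, 467 rose (2.59%) and 541 fell (3%), with a median absolute log2 change of 0.86. The rises were larger than the falls: the median log2 change was 1.95 over the genes that rose and -0.61 over those that fell, and 217 of the 467 risen genes had a mean under 2 CPM. Protein-coding genes made up 277 of the rises and 465 of the falls. Immunoglobulin and T cell receptor genes rose in 49 of 131 cases (37.4%), and small or ribosomal RNAs in 29 of 199 (14.6%), and neither class had a fall. With each of the 12 libraries left out in turn, Igkc and Ighm kept their call in all 12 fits. Others did not: Ighv1-19 kept it in 3 and Igkv12-89 in 1. The low-count filter can keep a gene through the old libraries alone, so these shares depend on the filter. The 5 small RNAs that set library kind were all among the 467 genes that rose. For small RNAs without a poly(A) tail, age and library kind cannot be told apart over the full set. Other genes can follow kind too, as Taf9 did (below). The part of kind in their changes was not tested beyond the within-kind values.

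Single libraries weighed on the number of calls. Leaving out each of the 12 libraries in turn gave between 185 calls, without old male 2, and 3161 calls, without old male 3. Of the 1008 genes, 152 kept their call in all 12 of these fits, 51 of them higher and 101 lower in old muscle. Within kind, 66 of 20186 genes were called (0.327%), and 279 (1.38%) when kind was set by the small RNA share alone. Dropping the 4 old libraries numbered 1 and 2, whose kind no young library has, left 2 calls, Prkcz and Plekhh1. Dropping young males 2 and 3, which held liver transcripts, left 5, among them rises of Ankrd1 and Gadd45a and falls of Cacna2d4 and Map2k6, and that of the uncharacterised Gm33543. The first of these 2 fits kept old female 3 and old male 3 as the only old libraries, and the second kept young male 1 as the only young male. Their counts therefore also reflect lost replicates. Albumin (Alb), a liver transcript, was at 122 CPM in young male 2, but at 18.1 CPM in young male 3 and 26.5 CPM in young female 2. The second fit kept the 3 old females, at 130, 361 and 298 CPM of Alb, so it did not take out liver RNA as a whole. The part of liver RNA was not tested. The genes that rose had a median log2 change of 0.71 within kind, and those that fell had -0.49. In 349 genes (1.93% of those tested) the 6 old and 6 young libraries did not overlap at all, 200 (1.11%) with every old library higher and 149 (0.825%) with every old library lower.

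**Figure D1:**
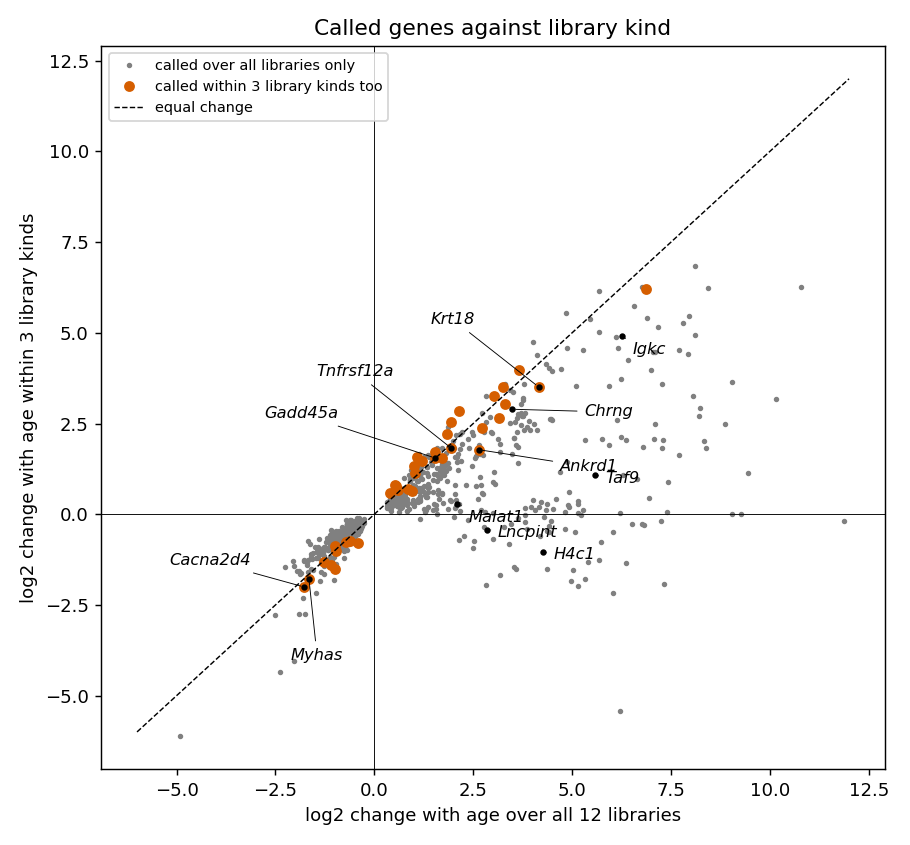
Log2 change with age of the called genes over all 12 libraries (x axis) against that within library kind (y axis), both old minus young in log2 units; orange points were also called within kind and the dashed line marks equal change. The genes that rose have a median of 1.95 on the x axis and 0.71 on the y axis, those that fell -0.61 and -0.49, and the axes share libraries.

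Of the 12 largest rises named by rule, which leaves out immunoglobulin genes, those of Taf9 and Krt18 were the largest that kept their call in every leave-one-out fit. Krt18 is a keratin of simple epithelia. Krt18 was at 15.5, 2.85 and 2.17 CPM in old females and 5.29, 3.58 and 6.67 CPM in old males, against 0.228, 0.294 and 0.17 CPM in young females and 0.11, 0.609 and 0.742 CPM in young males. Every old library lay above every young one, a change of 4.15 ± 0.64 (adjusted p = 0.00392), and 3.51 (adjusted p = 0.0352) within kind. In CreER muscle Krt18 changed by 2.81 (adjusted p = 0.00647). Krt18 is also made by hepatocytes. Of 12 keratinocyte markers none was called, with sums of 11.8 to 25.3 CPM in old and 7.57 to 29.3 CPM in young libraries. Of 10 hepatocyte markers none was called either, with sums of 305, 699 and 745 CPM in old females, 55.8 to 107 CPM in old males and 82.3 to 351 CPM in the young. The part of liver RNA in the rise of Krt18 was not tested.

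Ankrd1, a stress-responsive ankyrin repeat protein that binds titin in the sarcomere, was at 117, 79.8 and 59.5 CPM in old females and 53.5, 72 and 21.7 CPM in old males, against 11.4, 10.3 and 8.33 CPM in young females and 4.23, 15.3 and 13.1 CPM in young males. The 2 ages did not overlap, and the change was 2.64 ± 0.36 (adjusted p = 0.00238), with 1.78 (adjusted p = 0.0396) within kind. Tnfrsf12a, the receptor of the cytokine TWEAK, was at 44.7, 53.3 and 91.8 CPM in old females and 39.4, 43.5 and 20.2 CPM in old males, against 8.15, 11.5 and 7.01 CPM in young females and 13.9, 17.6 and 18.3 CPM in young males. It too was higher in all 6 old libraries, by 2.83 in females and 1.05 in males, and overall changed by 1.94 ± 0.38 (adjusted p = 0.0103), with 1.82 (adjusted p = 0.0254) within kind. Aif1l, an actin-binding relative of a macrophage protein, rose by 2.09 ± 0.36 (adjusted p = 0.00637), from 7.27, 5.75 and 2.96 CPM in young females and 2.28, 1.07 and 2.45 CPM in young males to 29.3, 8.8 and 8.49 CPM in old females and 13.1, 14.2 and 8.93 CPM in old males. Its within-kind value was 1.43 (adjusted p = 0.181). All 4 genes kept their call whichever of the 12 libraries was left out.

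Of the other large rises, Cacna1i, a T-type calcium channel subunit, ranged from 2.02 to 7 CPM (median 4.79) in the old libraries and 0.262 to 2.08 CPM (median 0.485) in the young, a change of 2.93 ± 0.76 (adjusted p = 0.0325). Insyn2b, named for inhibitory synapses, ranged from 0.412 to 4.3 CPM (median 4.03) in the old libraries and 0.131 to 1.17 CPM (median 0.898) in the young, a change of 2.31 ± 0.58 (adjusted p = 0.0286). Old male 3 was at 0.412 CPM of Insyn2b, among the young values. Both genes lost their call in 8 of the 12 leave-one-out fits, with adjusted p up to 0.0964 and 0.0821.

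**Figure D2:**
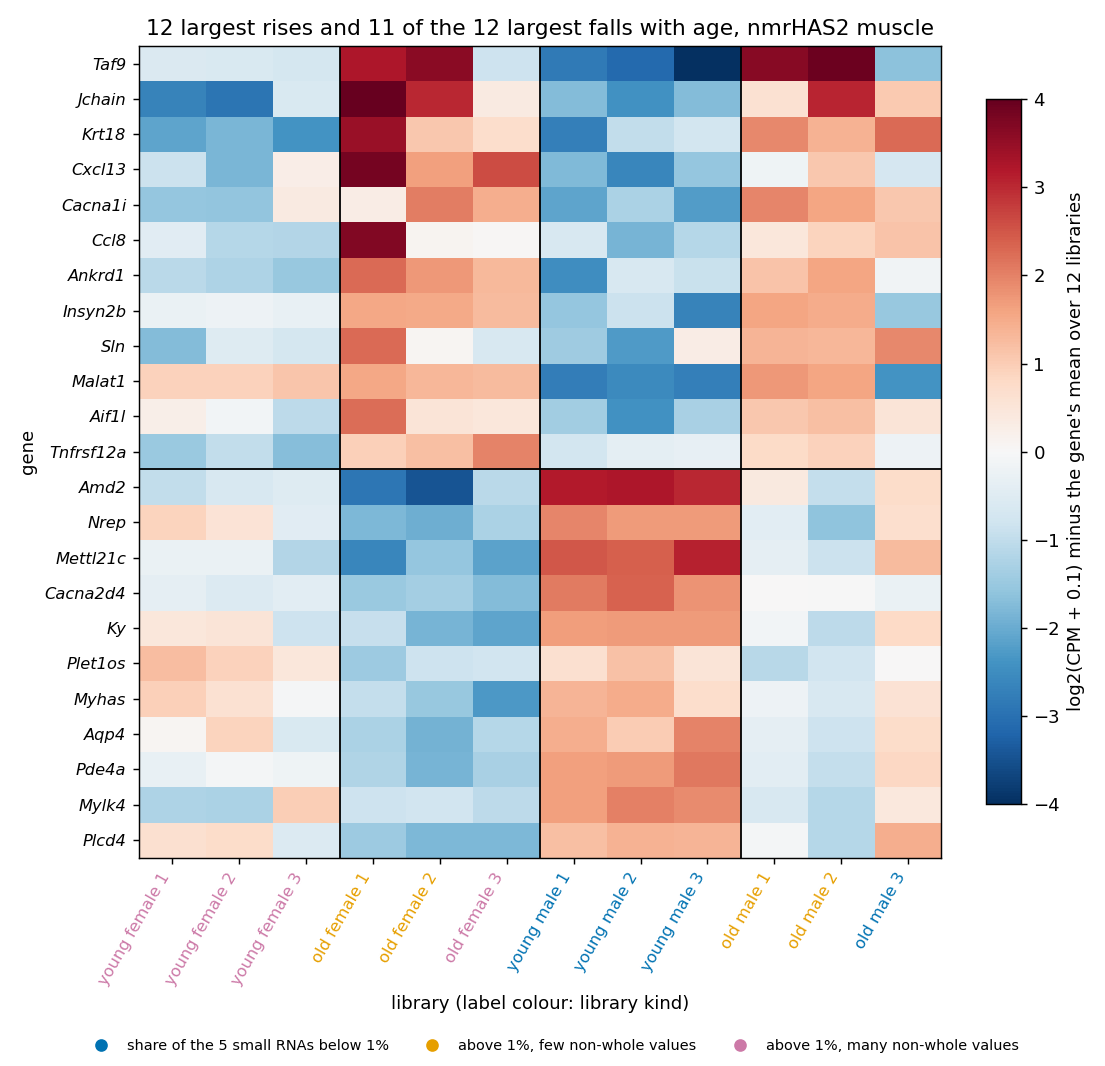
Level of the 12 largest rises (upper block) and 11 of the 12 largest falls (lower block) in each of the 12 nmrHAS2 muscle libraries, as log2(CPM + 0.1) minus the gene's mean over the 12, in log2 units; each cell is 1 library and label colour gives its library kind. Krt18 is above its mean in all 6 old libraries and below it in all 6 young, and old male 3 stands with the young males for Malat1.

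Among the largest falls, 8 genes kept their call in all 12 leave-one-out fits. Of these, Nrep, Mettl21c, Ky, Aqp4, Pde4a and Plet1os were not called within kind, a fit with 1 old library per sex. Their smallest falls over the alternative fits, those within kind included, lay between -1.05 for Pde4a and -1.5 for Mettl21c. Nrep, a small neuronal regeneration-related protein, was at 10.6, 9.46 and 15.3 CPM in old females and 27.2, 12 and 59 CPM in old males, against 67.8, 54 and 27 CPM in young females and 143, 121 and 121 CPM in young males. The old were below the young in each sex, a change of -2.02 ± 0.33 (adjusted p = 0.00493). Mettl21c, a protein methyltransferase of muscle, was at 3.2, 6.79 and 4.4 CPM in old females and 15.6, 10.9 and 48 CPM in old males, against 16.4, 16.4 and 8.77 CPM in young females and 113, 106 and 171 CPM in young males. Young males were far above young females here, so that old and young overlapped over both sexes but not within either. The change was -1.97 ± 0.35 (adjusted p = 0.00897).

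Ky, the kyphoscoliosis peptidase of the sarcomere's Z-disc, was at 22.7, 12 and 10.1 CPM in old females and 40.5, 20.9 and 76 CPM in old males, against 59.9, 62.1 and 24.7 CPM in young females and 138, 143 and 143 CPM in young males. It fell by 1.67 ± 0.31 on the log2 scale (adjusted p = 0.0103), and old female and male levels were again below the young of their sex. Aqp4, the water channel of the fast-fibre membrane, changed by -1.59 ± 0.29 (adjusted p = 0.00912), with 3.78 to 24 CPM (median 7.16) in the old libraries and 9.27 to 56.4 CPM (median 27.5) in the young. Pde4a, a phosphodiesterase that breaks down cyclic AMP, changed by -1.55 ± 0.28 (adjusted p = 0.0085), with 2.51 to 16.9 CPM (median 4.42) in the old libraries and 7.66 to 41.2 CPM (median 19.2) in the young. Cacna2d4, an auxiliary subunit of voltage-gated calcium channels, was low throughout, at 0.403, 0.449 and 0.325 CPM in old females and 1.32, 1.3 and 1.07 CPM in old males, against 0.993, 0.871 and 0.962 CPM in young females and 5.85, 7.2 and 4.8 CPM in young males. Its change was -1.77 ± 0.23 (adjusted p = 0.0023) overall and -2.01 (adjusted p = 0.0338) within kind.

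Long non-coding RNAs were among them. Myhas, transcribed from the fast myosin gene cluster, was at 6.54, 4.36 and 2.49 CPM in old females and 11, 8.07 and 19.1 CPM in old males, against 24.7, 19.6 and 12.3 CPM in young females and 32.9, 35.4 and 20.6 CPM in young males. It changed by -1.65 ± 0.28 (adjusted p = 0.00552) and by -1.78 (adjusted p = 0.0473) within kind. Plet1os was lower in every old library than in any young one, at 1.17 to 3.46 CPM (median 1.9) in the old libraries and 4.73 to 8.08 CPM (median 5.94) in the young, a change of -1.67 ± 0.32 (adjusted p = 0.0103). Both lie antisense to or near other genes, and the sources used here do not say whether counting used strand, so reads of overlapping genes cannot be told apart. Mylk4, a kinase for myosin light chains, changed by -1.47 ± 0.35 (adjusted p = 0.0247), and Plcd4, a phospholipase C, by -1.46 ± 0.34 (adjusted p = 0.024). Both overlapped between ages within at least 1 sex and lost their call in 6 and 7 of the 12 leave-one-out fits.

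Some genes were called both over all libraries and within kind, a choice that favours large within-kind changes. The following were picked after their values were seen, from the 36 genes called in both analyses, which share libraries. Prkcz, an atypical protein kinase C, was at 4.61, 3.3 and 9.03 CPM in old females and 5.51, 5.14 and 3.83 CPM in old males, against 2.36, 2.66 and 2.64 CPM in young females and 1.07, 1.12 and 1.62 CPM in young males. All old libraries were above all young ones, a change of 1.54 ± 0.21 (adjusted p = 0.0023) overall and 1.70 (adjusted p = 0.00291) within kind. Hpgd, the enzyme that breaks down prostaglandin E2, was at 11.9, 8.51 and 6.12 CPM in old females and 15.8, 11.6 and 17.2 CPM in old males, against 4.91, 4.16 and 4.81 CPM in young females and 4.16, 2.13 and 1.62 CPM in young males. It was again higher in each old library than in any young one, by 1.71 ± 0.21 (adjusted p = 0.0023), and by 1.54 (adjusted p = 0.0321) within kind.

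Fcgr4, an Fc receptor of myeloid cells, was at 5.41, 2.27 and 2.56 CPM in old females and 0.551, 1.35 and 0.865 CPM in old males, against 0.183, 0.221 and 0.158 CPM in young females and 0.184, 0.203 and 0.131 CPM in young males. The ages did not overlap, with a change of 3.29 ± 0.71 (adjusted p = 0.0167), although the call was lost in 4 of the 12 leave-one-out fits (adjusted p up to 0.0533). Mknk2, a kinase of the translation factor eIF4E, changed by 0.84 ± 0.21 (adjusted p = 0.0286), with 262 to 396 CPM (median 373) in the old libraries and 165 to 254 CPM (median 195) in the young, and lost its call in 9 of the 12 leave-one-out fits. Sik1, a salt-inducible kinase, changed by 1.20 ± 0.19 (adjusted p = 0.00424). The change was 1.82 in females and 0.57 in males, where young male 1 lay among the old. In the other direction, Map2k6, which activates the p38 kinases, was at 6.2, 8.64 and 6.7 CPM in old females and 16.9, 12.8 and 15.3 CPM in old males, against 20.3, 21.9 and 17.1 CPM in young females and 19.4, 26.1 and 16.9 CPM in young males. Every old library was below every young one, by -0.97 ± 0.13 (adjusted p = 0.0023) overall and by -1.01 (adjusted p = 0.0423) within kind. Lrtm1, a leucine-rich membrane protein, changed by -1.09 ± 0.25 (adjusted p = 0.022), and Sspn, sarcospan of the dystrophin complex, by -0.62 ± 0.14 (adjusted p = 0.023). Both of these lost their call in 6 of the 12 leave-one-out fits.

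**Figure D3:**
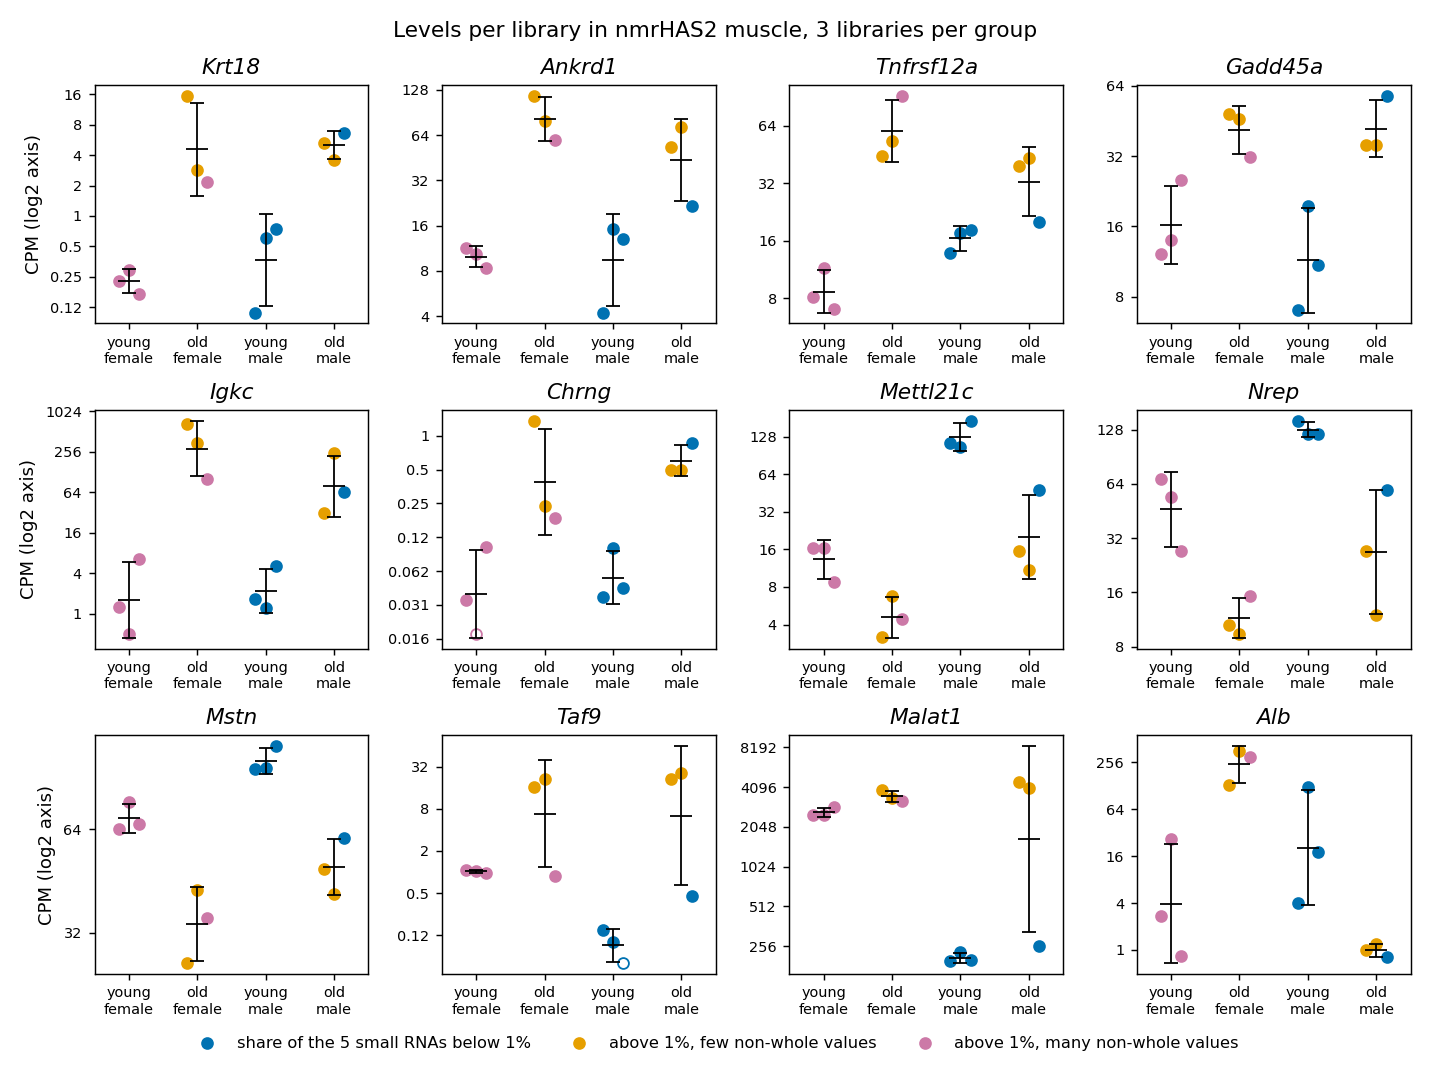
Level in CPM (log2 axis) of 12 genes in each library by age and sex; points are libraries coloured by kind, open points are listed at 0, and bars give the mean ± SD of the 3 log2 values of a group. The old points of Krt18 lie between 2.17 and 15.5 CPM, all above the young points, which lie between 0.11 and 0.742 CPM.

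Genes of embryonic and regenerating fibres rose in part. Of 10 tested, 5 rose and none fell, against 2.59% and 3% of all genes, with a median log2 change of 0.89 over the 10 (1.09 within kind) beside 0.03 over all genes. These shares of all genes are the background for every list count over all 12 nmrHAS2 libraries that follows. Other fits have other backgrounds: those with a library left out called 185 to 3161 genes in all. Chrng, the fetal gamma subunit of the acetylcholine receptor, was at 1.36, 0.238 and 0.185 CPM in old females and 0.496, 0.501 and 0.865 CPM in old males, against 0.0342, 0 and 0.102 CPM in young females and 0.0368, 0.101 and 0.0437 CPM in young males. These are low levels, but no old library overlapped a young one, and the change of 3.48 ± 0.69 (adjusted p = 0.0112) kept its call in all 12 leave-one-out fits. Myh3, the embryonic myosin heavy chain, was at 5.16, 4.65 and 3.37 CPM in old females and 14.3, 9.75 and 5.93 CPM in old males, against 1.3, 3.16 and 2.9 CPM in young females and 0.736, 1.27 and 2.66 CPM in young males. It changed by 1.76 ± 0.38 (adjusted p = 0.0154) without overlap and lost its call only without young female 1 (adjusted p = 0.0509).

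Mymx and Mymk, the membrane proteins that fuse myoblasts, were at 0.139 to 1.12 CPM (median 0.363) in the old libraries and 0 to 0.135 CPM (median 0.0539) in the young for Mymx and at 0.0927 to 0.988 CPM (median 0.196) in the old libraries and 0.0123 to 0.203 CPM (median 0.041) in the young for Mymk. Their changes were 2.74 ± 0.66 (adjusted p = 0.0266) and 2.21 ± 0.56 (adjusted p = 0.0307), and the calls were lost in 5 and 8 of the 12 leave-one-out fits. Myl4, the embryonic myosin light chain, changed by 0.88 ± 0.22 (adjusted p = 0.0302), with 0.38 in females and 1.39 in males. The count of 5 became 1 without young female 1, 2 without old female 1, old male 1, young male 1 or young male 2, and 3 without old female 2 or young female 2, and none of the 10 was called within kind. Myog, the myogenic factor that switches on Chrng and other genes of differentiating fibres, was at 4.21 to 14.9 CPM (median 6.92) in the old libraries and 2.08 to 6.34 CPM (median 4.55) in the young, a difference of 0.83 ± 0.36 (adjusted p = 0.161) that did not pass the test.

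Myogenic factors such as myogenin bind the E-box CANNTG, with CAGCTG among its forms. The 200 bases before the start of Chrng (chr1:87205611-87205810), Myh3 (chr11:67078100-67078299) and Myl4 (chr11:104550463-104550662), all on the plus strand, are shown for that reason. They come from RefSeq (GRCm38.p6) and run 5′ to 3′, with every CANNTG, which reads the same on both strands, in capitals.
Chrng: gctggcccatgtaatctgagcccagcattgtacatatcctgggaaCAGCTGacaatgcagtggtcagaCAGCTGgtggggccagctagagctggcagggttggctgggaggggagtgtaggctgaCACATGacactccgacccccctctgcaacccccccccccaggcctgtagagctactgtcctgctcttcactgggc
Myh3: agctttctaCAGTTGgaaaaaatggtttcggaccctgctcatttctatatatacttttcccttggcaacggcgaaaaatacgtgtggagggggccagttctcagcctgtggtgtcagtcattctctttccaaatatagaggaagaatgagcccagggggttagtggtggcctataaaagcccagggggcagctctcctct
Myl4: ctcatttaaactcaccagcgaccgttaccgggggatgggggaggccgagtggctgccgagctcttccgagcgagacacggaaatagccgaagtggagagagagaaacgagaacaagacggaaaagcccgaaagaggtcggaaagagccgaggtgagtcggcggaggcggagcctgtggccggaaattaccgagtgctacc

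The Chrng window holds 3 CANNTG matches, 2 of them CAGCTG, and 7.5% of 32843 gene starts hold at least 3 in a window of this length. The Myh3 window holds 1 and the Myl4 window 0. At least 1 CANNTG is found in 58.2% of all windows and CAGCTG in 10.9%, so the Chrng count is the least common of the 3. A match describes the letters and is no evidence of binding.

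Genes that respond to loss of the nerve also rose in part. Of 19 tested, 4 rose and none fell, against the same 2.59% and 3% of all genes. Their median log2 change was 0.64 (0.32 within kind). Gadd45a, a stress-induced gene that rises in denervated muscle, was at 48.6, 46.1 and 31.6 CPM in old females and 35.8, 35.6 and 58 CPM in old males, against 12.2, 14 and 25.2 CPM in young females and 7.03, 19.6 and 10.9 CPM in young males. The ages did not overlap, and Gadd45a changed by 1.54 ± 0.24 (adjusted p = 0.00416) overall and 1.55 (adjusted p = 0.045) within kind. Runx1, a transcription factor that limits wasting in denervated fibres, was at 11.3, 4.47 and 4.9 CPM in old females and 7.38, 6.47 and 5.97 CPM in old males, against 1.6, 1.99 and 4.24 CPM in young females and 1.51, 2.43 and 1.88 CPM in young males. It was higher in every old library, by 1.59 ± 0.30 (adjusted p = 0.0103), with 1.26 (adjusted p = 0.197) within kind. Both calls held in all 12 leave-one-out fits.

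Sln, sarcolipin, which inhibits the calcium pump of the sarcoplasmic reticulum, changed by 2.18 ± 0.52 (adjusted p = 0.0252), with 4.26 to 32.8 CPM (median 17.3) in the old libraries and 1.32 to 8.34 CPM (median 3.27) in the young. It overlapped in females, and its call was lost in 7 of the 12 leave-one-out fits. Cdkn1a is on this list and on that of p53 targets, and is given there. The other 15 genes on the list, including the receptor subunits Chrna1, Chrnb1, Chrnd and Chrne, did not pass the test. The count was 2 without old male 1, old male 2, young female 1, young female 2 or young male 2, and within kind Gadd45a alone was called.

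Few contractile and metabolic genes of mature fibres passed the test, and the counts rested on old male 3: without it, falls were called in 8 of 16 fast-fibre genes, 7 of 17 glycolysis genes and 9 of 13 mitochondrial mRNAs, against 1, 2 and 1 with it. Each other library left out gave 0 or 1 such falls in the fast-fibre list, 0 to 2 in glycolysis and 0 in the mitochondrial list. Without old male 3, 3161 genes were called in all, against 1008 with it. Of 16 fast-fibre genes only Casq1, the calcium store protein calsequestrin 1, was called: it changed by -0.78 ± 0.20 (adjusted p = 0.0337), with 717 to 3007 CPM (median 1124) in the old libraries and 1190 to 3478 CPM (median 2394) in the young, and lost its call in 10 of the 12 leave-one-out fits. Myh4, the fastest myosin heavy chain, was at 26895 to 53439 CPM (median 46885) in the old libraries and 37446 to 57324 CPM (median 44046) in the young, a difference of -0.13 ± 0.26 (adjusted p = 0.783). The 11 slow-fibre genes had a median of -1.09 (-0.26 within kind) with none called, and Myh7, the slow myosin, was at 43.7, 3.73 and 156 CPM in old females and 134, 122 and 132 CPM in old males, against 45.8, 332 and 258 CPM in young females and 95.2, 10.3 and 529 CPM in young males. Old females alone spanned 3.73 to 156 CPM, and the ages overlapped in each sex.

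Of 17 glycolysis genes 2 fell. Pgm1, phosphoglucomutase, changed by -0.75 ± 0.17 (adjusted p = 0.022), lower in old than in young within each sex, and lost its call in 4 of the 12 leave-one-out fits. Phkg1, the catalytic subunit of muscle phosphorylase kinase, changed by -0.50 ± 0.14 (adjusted p = 0.044) and lost its call in 10 of the 12 leave-one-out fits. None of 36 nuclear genes of oxidative phosphorylation passed the test, though 7 fell without old male 3 and 2 without old female 3, with a median of -0.27 overall and -0.01 within kind. The 13 mitochondrial mRNAs had a median of -0.68, with -0.09 in females and -1.41 in males. Only mt-Nd5 was called (the call was lost in 11 of the 12 leave-one-out fits), at 840, 1036 and 811 CPM in old females and 965, 1073 and 7078 CPM in old males, against 776, 755 and 2161 CPM in young females and 13732, 18386 and 15667 CPM in young males. Its level was high in the 4 libraries with few small RNAs, old male 3 included, and low in the other 8. The part of library kind in this result was not tested beyond the within-kind value of -0.89 (adjusted p = 0.298).

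Among 18 atrophy genes, Mstn alone was called, and none of the others rose or fell past the threshold (2 rose without young female 3 or young male 2). Mstn encodes myostatin, a secreted brake on muscle growth, and was at 26.1, 42.5 and 35.2 CPM in old females and 49, 41.4 and 60.4 CPM in old males, against 64.3, 77.1 and 66.4 CPM in young females and 96.2, 96.8 and 112 CPM in young males. All old libraries were below all young ones, a change of -1.01 ± 0.24 (adjusted p = 0.024), and -0.87 (adjusted p = 0.169) within kind. The call was lost in 6 of the 12 leave-one-out fits, with adjusted p up to 0.077. Its relative Gdf11 changed by 0.90 ± 0.25 (adjusted p = 0.044), from 12.3, 9.96 and 6.37 CPM in young females and 6.85, 8.07 and 6.24 CPM in young males to 9.95, 6.98 and 5.3 CPM in old females and 43.9, 19.9 and 31 CPM in old males. It was -0.37 in females and 2.16 in males, and the call was lost in 10 of the 12 leave-one-out fits. Fgf21, a stress-induced hormone, was listed at 0 in the 3 young males and at 0 to 0.0342 CPM in young females, against 0.0742 to 0.988 CPM in old libraries. It was at least 10.4-fold higher in old than in young males, taking 3 counts over the 3 young libraries as the floor, with adjusted p = 0.0179 over both sexes. The call was lost only without young female 2 (adjusted p = 0.0522), and the within-kind adjusted p was 0.0646.

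**Figure D4:**
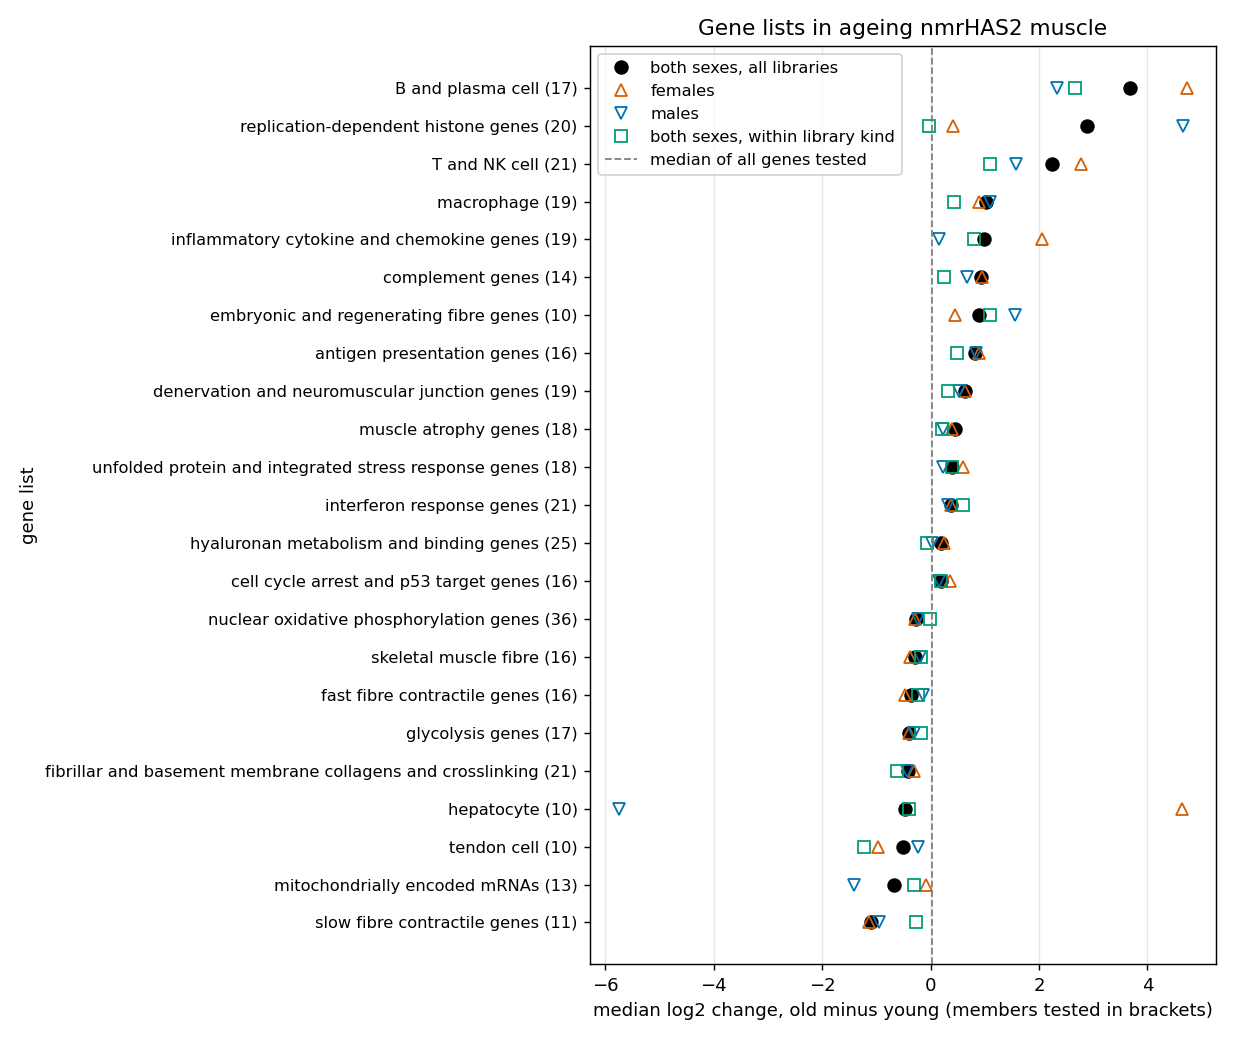
Median log2 change (old minus young, log2 units) of 23 gene lists over both sexes, in females, in males and within library kind, with the number of genes tested in brackets; the dashed line is the median of all genes, 0.03. B and plasma cell genes have 3.68 over both sexes and 2.66 within kind, the histone genes 2.88 and -0.04, and the hepatocyte markers 4.64 in females and -5.75 in males.

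Genes of B and plasma cells had the highest median change of the 48 lists examined. Of 17 genes of B and plasma cells, 6 rose and none fell, and the median log2 change was 3.68, with 2.66 within kind. Their summed level was 158 to 1670 CPM in old and 43.7 to 147 CPM in young libraries, without overlap, and no marker was at 0 in all 12. In bulk muscle more cells of a type and more RNA per cell cannot be told apart. Igkc, the kappa light chain constant region, was at 653, 348 and 102 CPM in old females and 31.4, 245 and 63.3 CPM in old males, against 1.24, 0.503 and 6.41 CPM in young females and 1.66, 1.22 and 5.02 CPM in young males. Every old library was above every young one, a change of 6.25 ± 1.18 (adjusted p = 0.0103), kept in all 12 leave-one-out fits. Within kind it was 4.90 (adjusted p = 0.102).

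Ighm, the IgM heavy chain, was at 866, 477 and 396 CPM in old females and 110, 510 and 298 CPM in old males, against 61.6, 36.8 and 57.2 CPM in young females and 136, 137 and 51.8 CPM in young males. Only old male 1 fell among the young values, and the change of 2.49 ± 0.48 (adjusted p = 0.0103) was likewise kept in all 12 fits. Jchain, which joins IgM and IgA into polymers, was at 4.05 to 53.8 CPM (median 16.4) in the old libraries and 0.331 to 2.01 CPM (median 0.69) in the young, a change of 4.49 ± 0.98 (adjusted p = 0.0175). Ighg2b changed by 6.24 ± 1.33 (adjusted p = 0.0152), Ighg2c by 3.91 ± 0.94 (adjusted p = 0.026) and Mzb1, a chaperone of antibody-secreting cells, by 4.49 ± 1.19 (adjusted p = 0.0355). These 4 genes did not overlap between ages, yet lost their call in 5, 3, 7 and 11 of the 12 leave-one-out fits. IgG heavy chain genes are similar in sequence, and counts may be split between them. The list's count was 2 without young female 1, young female 2 or young male 2, 3 without old male 2 or young male 3, 4 without old female 2 or young male 1 and 10 without old male 3. Within kind none was called, and 3 were when kind was set by the small RNA share alone. In CreER muscle the same list had 1 gene called and a median of 0.70, and the T and NK cell list a median of 0.21. Other lists had more calls in CreER muscle: 10 rises among 19 macrophage genes (median 1.28) and 11 falls among 21 collagen genes. In that comparison 8% of all genes were called higher and 9.06% lower. Differences of lists between the genotypes were not tested.

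All 21 T and NK cell genes had a positive change, with a median of 2.24 (1.09 within kind), but only Gzmk was called. Gzmk, a granzyme of cytotoxic T cells, was listed at 0 in 5 of the 6 young libraries and at 0.0113 CPM in the other one, against 0.509, 0.264 and 0.102 CPM in old females and 0.0275, 0.577 and 0.124 CPM in old males. It was at least 5.64-fold higher in old than in young males by the same floor (adjusted p = 0.0462 over both sexes), and lost its call in 10 of the 12 leave-one-out fits. Summed levels of this list were low, at 7.8 to 20.5 CPM in old and 2.67 to 8.03 CPM in young libraries.

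Of 19 macrophage genes 3 rose, with summed levels of 147 to 843 CPM in old and 97.9 to 352 CPM in young libraries, and all 19 had a positive change, with a median of 1.02 (1.15 with a gene at 0 in a group set to its bound) and 0.43 within kind. Adgre1, the F4/80 antigen, was at 4.36 to 35.4 CPM (median 12.5) in the old libraries and 2.05 to 12.5 CPM (median 5.98) in the young, a change of 1.33 ± 0.34 (adjusted p = 0.0303). C1qa and C1qb, subunits of the first complement component, changed by 1.30 ± 0.35 (adjusted p = 0.0359) and 1.24 ± 0.31 (adjusted p = 0.0301). C1qa and C1qb were also, with C4b at 1.31 ± 0.37 (adjusted p = 0.0429), the 3 called of 14 complement genes. Their within-kind values were smaller and not called, at 0.46 for C1qa, 0.64 for C1qb and 0.11 for C4b. The number of macrophage calls was 0 to 9, and of complement calls 0 to 6, with a library left out. Adgre1, C1qa, C1qb and C4b lost their call in 8, 10, 7 and 9 of the 12 leave-one-out fits. Ctss, a cathepsin of antigen-presenting cells, was above the young in each sex, at 11.9 to 56.4 CPM (median 24.9) in the old libraries and 5.5 to 12.1 CPM (median 9.01) in the young, a change of 1.65 ± 0.46 (adjusted p = 0.0407) whose call was lost in 10 of the 12 leave-one-out fits.

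Among 19 cytokine and chemokine genes 4 rose (1 to 5 with a library left out). Nfkb2, a subunit of the NF-kappaB transcription factors, was at 18.5, 9.59 and 9.15 CPM in old females and 13.9, 12.7 and 14.7 CPM in old males, against 5.66, 6.03 and 6.53 CPM in young females and 6.52, 6.8 and 8.25 CPM in young males. It was higher in all 6 old libraries, by 0.99 ± 0.20 (adjusted p = 0.0121), and kept its call in every leave-one-out fit, with 0.81 (adjusted p = 0.23) within kind. Cxcl13, which attracts B cells, was at 47.4, 10.4 and 20.4 CPM in old females and 2.92, 7.04 and 2.02 CPM in old males, against 1.77, 0.859 and 3.98 CPM in young females and 0.884, 0.457 and 1.05 CPM in young males. The old were above the young in each sex, by 2.94 ± 0.78 (adjusted p = 0.0351). Ccl8, a chemokine that attracts monocytes, was at 2.72 to 35.5 CPM (median 4.33) in the old libraries and 0.659 to 1.91 CPM (median 1.14) in the young without overlap, a change of 2.68 ± 0.65 (adjusted p = 0.0277), with old female 1 far above the rest. Ccl6 changed by 1.50 ± 0.37 (adjusted p = 0.028). The calls of Cxcl13, Ccl8 and Ccl6 were lost in 9, 8 and 7 of the 12 leave-one-out fits. No antigen presentation gene passed the test (1 was called higher without old male 3), although all 16 had a positive change with a median of 0.81, and B2m, the light chain of MHC class I, differed by 0.57 ± 0.32 (adjusted p = 0.261). Of 21 interferon response genes Ifit2 alone rose, by 0.72 ± 0.19 (adjusted p = 0.0381), and lost its call in 9 of the 12 leave-one-out fits.

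Genes of cell cycle arrest gave 3 rises among 16 (0 to 6 with a library left out). Cdkn1a, the inhibitor p21 that p53 induces, was at 18, 39.4 and 39.5 CPM in old females and 39.3, 36.8 and 51.5 CPM in old males, against 5.71, 9.05 and 19.4 CPM in young females and 24.2, 20.3 and 10.1 CPM in young males. Old female 1 and the young libraries overlapped, and the change was 1.36 ± 0.34 (adjusted p = 0.0301). Eda2r, a receptor that p53 induces, was at 104, 81.1 and 59 CPM in old females and 87.7, 97.5 and 54.1 CPM in old males, against 31.3, 36 and 39.7 CPM in young females and 25.9, 19.9 and 37.3 CPM in young males. The ages did not overlap, with 1.35 ± 0.32 (adjusted p = 0.0247) overall and 0.84 (adjusted p = 0.0954) within kind. Cdkn1c, the inhibitor p57, changed by 0.53 ± 0.14 (adjusted p = 0.0337). All 3 lost their call in 8 of the 12 leave-one-out fits. Cdkn2a, the inhibitor p16, was at 0.0849 to 0.551 CPM (median 0.206) in the old libraries and 0.0114 to 0.11 CPM (median 0.0927) in the young with a difference of 1.65 ± 0.51 (adjusted p = 0.0585), just outside the threshold. None of 20 proliferation genes was called.

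Stress and signalling genes added a few well-separated members. Xbp1, the transcription factor of the unfolded protein response, was at 70.1 to 100 CPM (median 76.2) in the old libraries and 51.9 to 65 CPM (median 56.4) in the young. Every old library lay above every young one, by 0.49 ± 0.09 (adjusted p = 0.0103), and Xbp1 was 1 of 2 called among 18 genes of that response, with Fgf21. Jund, a member of the AP-1 family, changed by 0.59 ± 0.10 (adjusted p = 0.00744) and was the only one called of 19 immediate early genes. Both kept their call in all 12 leave-one-out fits, and Jund was also called within kind, at 0.67 (adjusted p = 0.0338). Cldn5, the tight junction protein of endothelium, was at 19, 17.3 and 21.4 CPM in old females and 9.01, 16.2 and 11.9 CPM in old males, against 9.42, 8.51 and 10.1 CPM in young females and 8.95, 6.14 and 6.9 CPM in young males. It was above the young in each sex, by 0.90 ± 0.15 (adjusted p = 0.00493), while the other 13 endothelial markers did not pass the test. Notch3, the receptor of pericytes and vascular smooth muscle, changed by -0.61 ± 0.13 (adjusted p = 0.0167), with -0.16 in females and -1.05 in males. Its call was lost without old male 1 and without old male 2.

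Collagen genes gave falls alone, and no hyaluronan gene passed the test over all libraries. Of 21 collagen genes 2 fell, with a median of -0.42 (-0.63 within kind). Col1a1, a chain of type I collagen, was at 34.5, 12.7 and 15.1 CPM in old females and 21.8, 15.6 and 18.2 CPM in old males, against 51.3, 48 and 29.1 CPM in young females and 70.5, 51.1 and 51.1 CPM in young males. The old libraries were low except old female 1, and the change was -1.34 ± 0.32 (adjusted p = 0.0266), lost in 7 of the 12 leave-one-out fits. Col6a2 changed by -0.69 ± 0.20 (adjusted p = 0.0486), lost in 9 of the 12 leave-one-out fits. The list's count of falls was 0 without old female 2, old male 1, old male 2, young female 1, young female 2, young male 1 or young male 3, 1 without old female 3 or young male 2, and 5 without old female 1. Few markers of collagen-making cells were called over all libraries. Of 14 fibro-adipogenic markers Col1a1 alone was called, with sums of 990 to 2785 CPM in old and 1262 to 2928 CPM in young libraries. Of 10 tendon cell markers none was called over all libraries. The tendon markers summed to 47.4 to 155 CPM in old and 102 to 233 CPM in young libraries, with a median change of -0.50, and -1.23 within kind. Their part in the fall of Col1a1 was not tested. Of 25 hyaluronan genes tested none passed (2 were called higher and 1 lower without old male 3), with a median of 0.20 (0.28 with a gene at 0 in a group set to its bound) and -0.06 within kind. Cd44, the main receptor, was at 3.21 to 12.7 CPM (median 8.69) in the old libraries and 4.97 to 10.1 CPM (median 6.18) in the young, a difference of 0.31 ± 0.41 (adjusted p = 0.665). Hyal2, a hyaluronidase, was at 7.75 to 9.3 CPM (median 8.88) in the old libraries and 7.44 to 9.65 CPM (median 8.41) in the young, a difference of 0.02 ± 0.10 (adjusted p = 0.934). Cemip2, which also cuts hyaluronan, differed by 0.41 ± 0.17 (adjusted p = 0.142).

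Of 20 polyamine and antioxidant genes 3 fell. Amd1, the S-adenosylmethionine decarboxylase that supplies polyamine synthesis, was at 145, 164 and 236 CPM in old females and 734, 395 and 1077 CPM in old males, against 299, 303 and 225 CPM in young females and 2489, 2449 and 2956 CPM in young males. Levels in males were above those in females at both ages, and the age change was -0.60 in females and -1.84 in males, -1.22 ± 0.24 (adjusted p = 0.0103) over both, kept in all 12 leave-one-out fits. Amd2, a near-identical copy whose reads may be shared with Amd1, changed by -2.26 ± 0.58 (adjusted p = 0.0307). Prdx3, a mitochondrial peroxidase, changed by -0.51 ± 0.13 (adjusted p = 0.0302), lower in old than in young within each sex. Both of these lost their call in 9 of the 12 fits. Atg12, of the autophagy machinery, changed by -0.38 ± 0.11 (adjusted p = 0.0423) and lost its call in 10 of the 12 leave-one-out fits.

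A last group followed library kind in its levels. Taf9, a subunit of the general transcription factor TFIID, was at 16.4, 21.2 and 0.89 CPM in old females and 21.5, 26.3 and 0.453 CPM in old males, against 1.07, 1.05 and 0.973 CPM in young females and 0.147, 0.101 and 0 CPM in young males. It was high only in the 4 old libraries numbered 1 and 2, whose kind no young library has, and old female 3 and old male 3 were at or near young levels. Its call was kept in all 12 leave-one-out fits, at 5.57 ± 1.05 (adjusted p = 0.0103), but within kind the value was 1.07 (adjusted p = 0.25). Malat1, an abundant nuclear RNA without a poly(A) tail, was at 3882, 3365 and 3241 CPM in old females and 4449, 4006 and 254 CPM in old males, against 2539, 2530 and 2897 CPM in young females and 196, 229 and 199 CPM in young males. The 8 libraries rich in small RNAs had 2530 to 4449 CPM and the 4 others 196 to 254 CPM. Its change of 2.10 ± 0.57 (adjusted p = 0.0394) was 0.28 (adjusted p = 0.431) within kind, and the call was lost in 11 of the 12 leave-one-out fits.

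Histone mRNAs, which also lack a poly(A) tail, gave 11 rises among 20 tested (0 without old male 2 or young male 2, and 14 without old male 3), with a median of 2.88 (1.79 with genes at 0 in a group set to their bounds). That median was 0.42 in females, 4.66 in males and -0.04 within kind. H4c1 was at 3.27, 2.93 and 1.26 CPM in old females and 2.15, 3.43 and 0 CPM in old males, against 1.14, 0.699 and 0.486 CPM in young females and 0.0368, 0 and 0 CPM in young males. It was near 0 in all 4 libraries with few small RNAs, and its change of 4.25 ± 0.94 (adjusted p = 0.0178) became -1.04 within kind. Lncpint, a long non-coding RNA, showed the same order, with old male 3 at 0.0823 CPM among the young males, and changed from 2.85 overall to -0.43 within kind. The calls of H4c1 and Lncpint were lost in 4 and 10 of the 12 leave-one-out fits. For these genes age and library kind cannot be told apart over the full set.

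The sexes were compared in their ageing. Females alone gave 295 calls (1.63%) and males 269 (1.49%). The test of the difference itself called 152 genes (0.841%), 125 of them (0.692%) with the higher change in females and 27 (0.149%) with the higher change in males. The most significant named genes were transcripts of liver: albumin (Alb) was at 130, 361 and 298 CPM in old females and 0.992, 1.2 and 0.823 CPM in old males, against 2.76, 26.5 and 0.837 CPM in young females and 4.01, 122 and 18.1 CPM in young males. It was high in all 3 old females and in young male 2, and the female minus male difference in log2 change was 10.28 (adjusted p = 0.00607). Hpx, the haem carrier hemopexin, differed by 12.37 and Itih4, an acute-phase protein, by 8.97.

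Of 10 hepatocyte markers none was called for age over both sexes, but their median was 4.64 in females and -5.75 in males. Summed hepatocyte markers reached 305, 699 and 745 CPM in old females and 351 CPM in young male 2, against 55.8 to 157 CPM in the other 8 libraries. Old CreER females were at 106 to 240 CPM of Alb. Without young males 2 and 3 no gene was called in this test (1361 had an unadjusted p under 0.05). Within kind, with 1 old library per sex, females alone gave 154 calls of 20186 (0.763%), males 7 (0.0347%) and the difference between the sexes 0 (0%) by edgeR, with 1820 genes at an unadjusted p under 0.05, and 10.8 (adjusted p = 0.241) for Alb. The fit without young males 2 and 3 kept young male 1 as the only young male, and the part of liver RNA in it was not tested. Old males 1 and 2 differed from the young males in their share of small RNAs. The female libraries all had a high share, so over the full set the sex difference and library kind cannot be told apart. Apart from liver transcripts, Gdf11 differed by -2.53, with -0.37 in females and 2.16 in males.

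CreER muscle aged in the same comparison with 3082 genes called (17.1%), 1445 higher (8%) and 1637 lower (9.06%). Its libraries fall into the same kinds by age and sex as those of nmrHAS2 muscle. Within kind 3218 were called (15.9%), and 1367 of these were among the 3082 with the same sign. Of the 1008 nmrHAS2 genes, 782 were called with the same sign in CreER (77.6% of the nmrHAS2 calls and 25.4% of the CreER calls) and none with the opposite sign. Ankrd1 changed by 2.29 (adjusted p = 0.00154) in CreER, Gadd45a by 1.76 (adjusted p = 0.000748), Nrep by -2.52 (adjusted p = 0.000689) and Mstn by -0.85 (adjusted p = 0.022). Igkc changed by 3.31 (adjusted p = 0.034). Ighm, at 1.24 (adjusted p = 0.0645), and Chrng, at 1.54 (adjusted p = 0.0939), did not pass the test in CreER muscle, and neither was called in the direct test of the genotypes.

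Whether ageing differed between genotypes was tested directly. No gene was called by edgeR's quasi-likelihood test (0%), with 335 of 18063 at an unadjusted p under 0.05, and DESeq2 called 18. Within kind, with 1 old library per sex in each genotype, 27 genes were called (0.134%), 5 with the higher and 22 with the lower change in nmrHAS2 muscle. The named gene with the smallest unadjusted p was Six2, a homeobox transcription factor, at 0.000603 (adjusted p = 1). It was at 0.401 to 2.26 CPM (median 0.719) in the old libraries and 0.925 to 7.25 CPM (median 2.61) in the young, a change of -1.46 ± 0.34 (adjusted p = 0.0224) in nmrHAS2 muscle beside 0.51 (adjusted p = 0.308), not called, in CreER muscle.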

How the data were processed

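The deposited table holds expected counts for 40946 genes in 144 libraries. Per the submitters' processing notes the authors used Trim Galore 0.6.5 and Salmon 1.4.0; the sources used here give neither genome build nor annotation. Per the labels' protocols, RNA was extracted with Trizol, treated with DNase I and cleaned on RNeasy columns. The deposited estimated counts were rounded to whole numbers, and levels are given as CPM, counts scaled to the TMM-adjusted library total. The 12 nmrHAS2 muscle libraries held 23.14 to 102.5 M counts (M, mega). Expected counts of shared reads are less certain than their totals.

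Genes were tested in R 4.3.3 with edgeR 4.0.16 (limma 3.58.1): edgeR's quasi-likelihood test with TMM scaling and its default low-count filter, fitted to 24 muscle libraries as 8 means, 3 libraries each, of genotype, age and sex. The age change is the mean of the female and male changes. Its standard error was derived from the test, as the absolute log2 change over the square root of F. It is therefore no separate measure of spread. Calls have a Benjamini-Hochberg adjusted p under 0.05 over 18063 genes. Fold changes of genes at 0 in a group were bounded with 3 counts over the group, which covers counting error only. Library kind was set by a share of 1% on 5 RNAs and by 40% fractional values. The within-kind fit tested 20186 genes and takes its spread from replicated groups, so a lone old library is assumed to vary like them. The female, male, sex, CreER and genotype comparisons were also fitted within kind. Alternatives were DESeq2 1.42.0, other scalings and filters, a replicate block and leaving out libraries. Scripts were tested on simulated data.

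The 24 largest changes have a mean of at least 2 CPM and 1 sign in both sexes and within kind; 1 of them is not reported here. Other names are the transgene and Has2, up to 4 called members per list of 48 lists, and the genes of smallest p in the sex and genotype differences; 8 chosen after their values were seen are marked as such. The groups, lists and named genes were chosen with earlier results of these data known. A p-value for a gene is not independent support for that choice.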

Additional observations from a re-analysis of the deposited data

Results flagged for a closer look

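Ageing differed between females and males in 152 genes by edgeR's test of the difference itself, 0.841% of those tested. Among the named ones, given as the female minus the male log2 change, the difference was 13.10 for Saa2 and 8.94 for Saa1, acute-phase serum amyloids. It was 12.37 for Hpx, 10.88 for complement component Hc, 10.28 for Alb and 8.97 for Itih4. These 6 are liver transcripts. They were high in the 3 old females, low in the old males and at a high or middle level in young males 2 and 3, and several libraries were at or near 0, so the sizes depend on the prior count. Each of the 6 kept its call when any 1 library was left out, and 0 genes were called without young males 2 and 3 or within library kind, where their differences were 9.14 to 16.8 with adjusted p from 0.065 to 0.241. Without young males 2 and 3, young male 1 was the only young male left. Gdf11, a secreted relative of myostatin, differed by -2.53, with every old male above every young male.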

How the results depend on the processing

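The number of genes called over both sexes, 1008, stayed within 1.5 times with RLE size factors (975), without RNAs lacking a poly(A) tail and histone genes (852), with counts not rounded (1000) and with library kind as a term (1461, of which 559 were among the 1008). It was 603 without the filter on low counts, 1547 with only the 12 nmrHAS2 libraries fitted (968 higher and 579 lower), 2597 without old male CreER 3 and 2317 with DESeq2. It was 279 within the 2 kinds set by the small RNA share and 66 within 3 kinds. Of alternatives added after the data were seen, leaving out young males 2 and 3 gave 5 and leaving out old libraries 1 and 2 of both sexes gave 2. The former kept young male 1 as the only young male, and the latter kept 1 old library per sex. Leaving out each library in turn gave 185 to 3161. In males alone 163 were called without the filter, 1106 with DESeq2 and 3 to 2523 with a library left out, against 269. In females DESeq2 called 1070 and leaving out a library gave 1 to 434, against 295. The sex difference had 468 calls with DESeq2, 0 without young males 2 and 3 and 29 to 709 with a library left out, against 152. Ageing in CreER muscle ranged from 1494 to 5728 calls. The genotype difference had 18 calls with DESeq2 and 0 in every leave-one-out fit. Within 2 kinds, DESeq2 called 889 and leave-one-out fits 104 to 495. The fit within 2 kinds without old male 3 was not run, since no old male of that kind is left. Within 3 kinds, added after the data were seen, females gave 154 calls, males 7, the sex difference 0, CreER ageing 3218 and the genotype difference 27. The cause of these shifts was not tested.

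Same-numbered replicates did not deviate together: their correlations of deviations were 0.148, -0.0711 and -0.0315 in females and 0.0624, -0.0272 and 0.114 in males, so the numbers were not taken to pair the samples. With the replicate number as a block, 932 genes were called over both sexes, 285 in females, 50 in males and 121 in the sex difference.

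Directions that reversed were those of Lncpint (-0.14 with kind as a term, -0.37 within 2 kinds, -0.43 within 3 kinds and also without old libraries 1 and 2), H4c1 (-0.56, -1.05 and -1.06), H1f1 (-0.80, -1.46 and -1.48) and Cd44 (-0.16, -0.16 and -0.14), the last 3 genes within 2 kinds, within 3 kinds and without old libraries 1 and 2. With a library left out, the transgene ranged from -0.32 to 0.52, Has2 from -0.031 to 0.812 and Hyal2 from -0.0172 to 0.0544, none of them called.

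Depth limits the low genes: 217 of the 467 risen genes had a mean under 2 CPM.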

Other observations

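Proteins of the cell's general upkeep showed no calls over all 12 libraries. None of 26 cytosolic ribosomal protein genes was called, with a median log2 change of 0.09 over both sexes. None of 23 proteasome genes was, at -0.08 (2 lower without old male 3), and none of 17 circadian clock genes, at -0.17 (2 lower without old male 3 and 1 without young female 3). Of 21 cholesterol synthesis genes none passed the test either (4 were called lower without old male 3), while 19 of the 21 had a negative change, with a median of -0.35 overall and -0.26 within kind. The heat shock list gave no call among 15 genes, with 0.42 in females and -0.36 in males, and 1 higher and 1 lower without old male 3.

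Fat and nerve markers gave no call over all libraries, and 1 nerve marker was called higher without old male 3. The 15 adipocyte markers summed to 1916 to 6738 CPM in old and 3026 to 5989 CPM in young libraries. The 12 markers of Schwann cells and nerve summed to 62.2 to 136 CPM in old and 96.6 to 175 CPM in young libraries. Neutrophil markers, 7 of them tested, had a positive change in all 7 and a median of 1.36, and none was called over all libraries. Their median was 1.94 within kind. In CreER muscle 5 of them were called higher, with a median of 5.7, against 8% of all genes called higher there.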
